A study of Mus musculus with 8 samples.

Results

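The Six-family genes encode homeobox transcription factors, and the Eya genes encode the cofactors that these factors recruit. The 9 genes described here were 5 Six-family genes (Six2, Six3, Six4, Six5 and Six6) and 4 Eya genes (Eya1, Eya2, Eya3 and Eya4). They were chosen by name, with earlier results of these data known, out of 21887 protein-coding genes placed on the chromosomes of GRCm38 (mm10). For each gene, every H2AK119ub peak that overlapped the RefSeq gene span with 20 kb on either side by at least 1 bp was collected, and this stretch is called the gene's window. H2AK119ub is histone H2A to which a ubiquitin is joined at a lysine of its tail. Peaks came from chromatin immunoprecipitation and sequencing of basal epidermal progenitors sorted from back skin of newborn mice at postnatal day 0 (EpCAM+, Sca1+, high α6-integrin).

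The groups compared were control mice (genotype Control) and mice labelled Eed cKO (genotype Eed-/-), each with 2 H2AK119ub libraries and 1 input, and each represented by 1 deposited peak list. A Ring1a/b 2KO group (genotype Ring1a-/- Ring1b-/-, 1 H2AK119ub library and 1 input) was not analysed here. The labels do not name the promoter or Cre that drives the deletion, the strain, or which animals gave each library. Replicate error could not be measured from a single list per genotype, so the differences below are between lists and carry no test. The read depth behind each list is unknown, and a shorter or missing peak can reflect less mark, fewer reads or another call threshold.

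A Six-family protein binds DNA through its homeodomain and binds Eya through the neighbouring SIX-type domain, and Eya adds a transactivation region and a phosphatase domain. With Pax and Dach proteins they form a network used again and again in the eye, ear, kidney and muscle. H2AK119ub is placed by Polycomb repressive complex 1 (PRC1) and is found over silent developmental regulator genes. Eed belongs to the core of another Polycomb complex, PRC2, whose product is methylated H3K27. These genes mostly belong to organs other than skin, and peaks measure where the mark was called, not how much a gene was transcribed.

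Among the whole lists, the control list held 4621 peaks (median width 4327 bp) and the Eed cKO list 2541 (median width 5169 bp). The cell type named in the labels cannot be checked from peaks of a repressive mark. Of 7 basal keratinocyte genes 1 (Krt5) had a control peak in its window and 0 an Eed cKO peak. In the same order of lists, 3 of 3 and 2 of 3 dermal fibroblast genes, 0 of 3 and 0 of 3 melanocyte genes and 1 of 3 (Cd207) and 0 of 3 leukocyte genes had one. Over all protein-coding genes the shares were 21.2% and 14.3%, and 3 or 7 genes per cell type are too few to set against them.

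DNA just before the annotated start of a gene is shown for 5 members, chosen to show starts that lay in peaks of both lists, of control alone and of neither. Polycomb marks in mammals are often found at CpG-rich DNA, so the dinucleotide CG is in capitals in the 250 bases before the start. The sequences are from RefSeq promoters of GRCm38.p6, with the start farthest upstream where a gene had several, and run 5′ to 3′ on the strand of the gene. Promoter entries were found for 7 of the 9 members, and Eya1 and Eya2 had none. The starts of Six2 and Six6 lay in a peak of both lists, those of Six3 and Eya4 in a control peak alone, and that of Eya3 in no peak.
Six2, chr17:85688255-85688504, minus strand: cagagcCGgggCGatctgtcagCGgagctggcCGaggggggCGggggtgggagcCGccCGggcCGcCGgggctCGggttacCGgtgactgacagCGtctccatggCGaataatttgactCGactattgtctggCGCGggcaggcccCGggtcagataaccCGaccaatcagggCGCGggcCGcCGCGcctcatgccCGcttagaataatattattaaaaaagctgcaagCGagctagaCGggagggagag
Six6, chr12:72939632-72939881, plus strand: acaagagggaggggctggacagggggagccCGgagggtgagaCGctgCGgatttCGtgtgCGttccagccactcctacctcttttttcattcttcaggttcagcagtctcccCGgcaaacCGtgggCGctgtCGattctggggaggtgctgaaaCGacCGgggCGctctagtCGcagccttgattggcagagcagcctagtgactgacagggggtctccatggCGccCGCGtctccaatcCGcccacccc
Six3, chr17:85620584-85620833, plus strand: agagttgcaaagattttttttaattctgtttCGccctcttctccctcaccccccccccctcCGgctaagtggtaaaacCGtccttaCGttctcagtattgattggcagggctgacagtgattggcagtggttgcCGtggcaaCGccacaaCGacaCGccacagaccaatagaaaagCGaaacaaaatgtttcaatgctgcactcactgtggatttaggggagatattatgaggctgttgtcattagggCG
Eya4, chr10:23349944-23350193, minus strand: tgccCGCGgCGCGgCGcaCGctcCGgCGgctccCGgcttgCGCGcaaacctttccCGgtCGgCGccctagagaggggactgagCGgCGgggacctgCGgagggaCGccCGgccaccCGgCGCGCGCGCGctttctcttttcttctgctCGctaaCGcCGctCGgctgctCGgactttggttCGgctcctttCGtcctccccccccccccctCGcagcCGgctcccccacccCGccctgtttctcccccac
Eya3, chr4:132638796-132639045, plus strand: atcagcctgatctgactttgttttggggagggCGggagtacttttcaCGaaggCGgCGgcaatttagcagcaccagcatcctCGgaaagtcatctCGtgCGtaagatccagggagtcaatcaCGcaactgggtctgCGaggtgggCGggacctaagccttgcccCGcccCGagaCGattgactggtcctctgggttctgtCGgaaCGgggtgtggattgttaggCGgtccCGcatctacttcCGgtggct

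The 250 bases held 26 CG in Six2, 17 in Six6, 10 in Six3, 35 in Eya4 and 18 in Eya3, and 13 each in Six4 and Six5. The median over 17492 genes with an entry was 10 (quartiles 3 and 19), and 92.6% of those genes held at least 1. CG reads the same on both strands. Eya4, with 35, was matched or exceeded by 3.44% of genes and Six2 by 11.7%, whereas 50.4% of genes had at least as many as Six3. The median was 15 CG for the 1123 genes whose start lay in a control peak and 9 for the 16205 genes whose start lay in no peak of either list. The members did not line up by this count: Eya3, with 18, and Six5, with 13, had no peak, while Six3, with 10, lay in the widest control peak of the 9 genes. The letters describe these stretches alone.

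**Figure D1:**
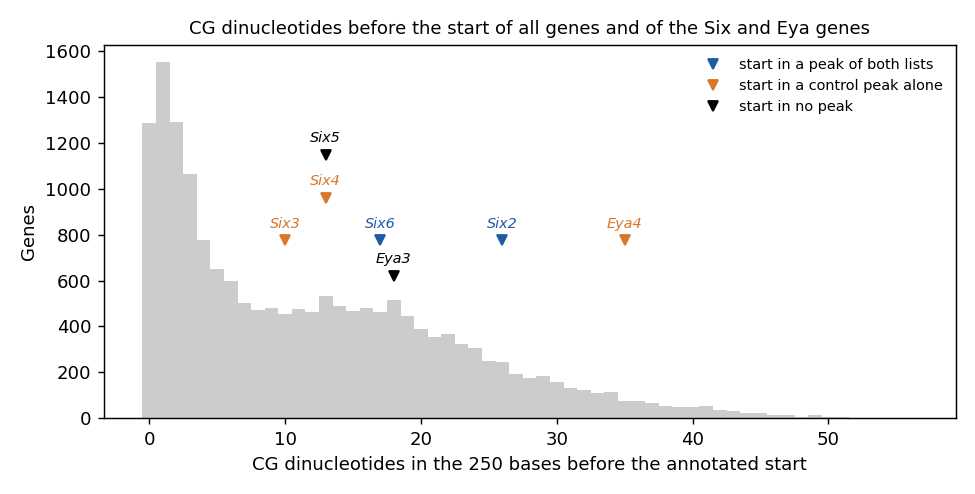
The histogram counts genes (vertical axis) by the number of CG dinucleotides in the 250 bases before the annotated start (horizontal axis). Triangles give 7 members at their own count, and their height has no meaning; the 2 starts in no peak (black, Six5 at 13 and Eya3 at 18) lie between the marked starts of Six3 at 10 and Eya4 at 35.

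In control cells 7 of the 9 members had a peak in their window, where 21.2% of all protein-coding genes did. In Eed cKO 5 of 9 had one, against 14.3% of all genes. The 5 genes in both lists were Six2, Six3, Six4, Six6 and Eya2, and 11.7% of all genes had a peak in both. Eya1 and Eya4 had a control peak alone, as did 9.52% of all genes. No member had an Eed cKO peak alone, as 2.65% of all genes did. Six5 and Eya3 had no peak in either list. Of the 7 genes with a control peak, 5 also had an Eed cKO peak, and this share was 55.1% over all 4635 genes with a control peak.

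Together the 9 windows held 9 control peaks and 5 Eed cKO peaks, and no peak was shared by the windows of different members. Control peaks covered 116.1 kb of the windows and Eed cKO peaks 46.1 kb. The whole Eed cKO list also covered less than the control list, 16.6 Mb against 29.0 Mb. Of the control-covered bases in the windows, 38.8% also lay under an Eed cKO peak. The same share over the whole control list is not given here. The Six-family genes held 98.1 kb of the control coverage and the Eya genes 18.0 kb. Of the 9 control peaks, 8 lay over an end of the gene span, the exception being a peak upstream of Six6. No such share over all genes is given here, so the count cannot be called particular to these members.

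**Figure D2:**
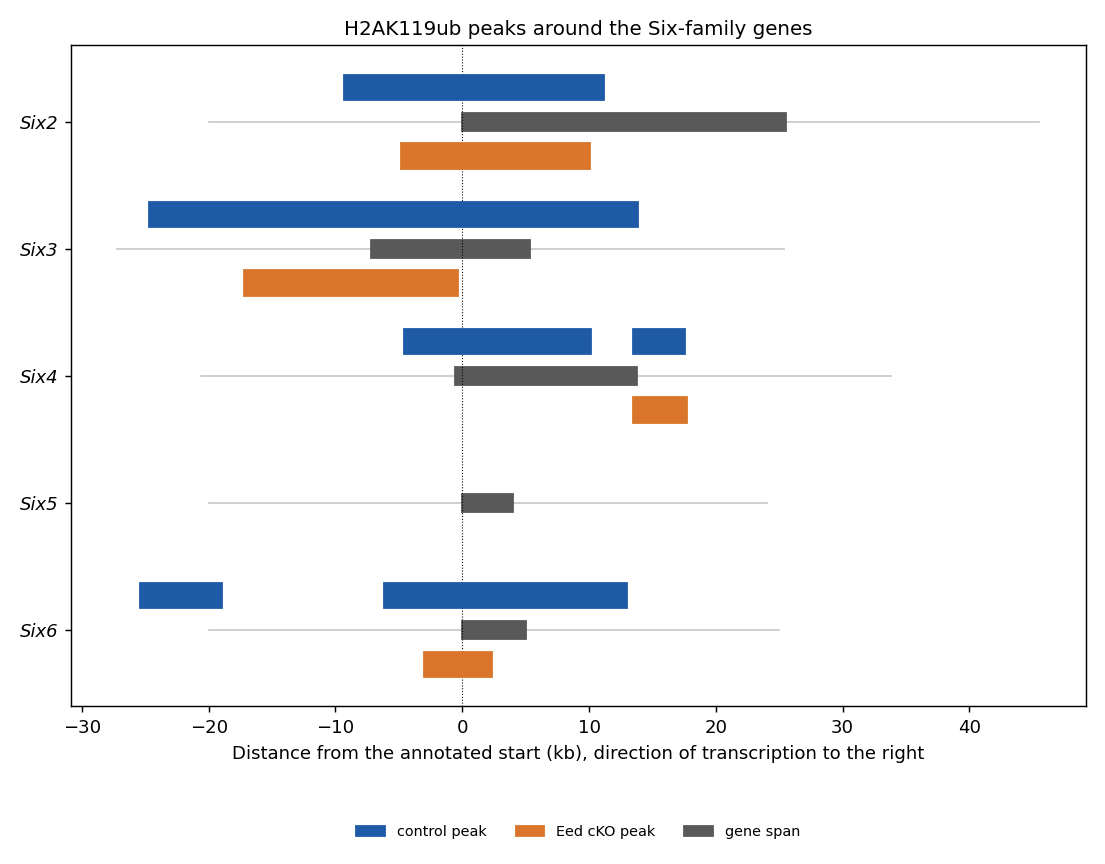
Peaks around the 5 Six-family genes are drawn to scale by distance from the annotated start in kb (horizontal axis), with control peaks in blue above the gene span (grey bar) and Eed cKO peaks in orange below; thin lines are the windows. At Six2 and Six6 the orange peak still lies across the start, at Six3 it ends 0.353 kb before it, at Six4 it lies at the far end of the gene alone, and Six5 has none.

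Six3, a factor of the forebrain and eye field, had the widest control peak of the 9 genes. Six3 spans 85613608 to 85626191 on chromosome 17 (12.6 kb), and its control peak ran for 38.6 kb, from 85596141 to 85634719. In width it ranked 38 among the 4621 control peaks. The Eed cKO peak ran for 16.9 kb, from 85603590 to 85620481, and lay wholly inside the control peak. It covered 43.8% of that peak, its edges lying inside by 7.45 kb on the side before the gene and by 14.2 kb on the side of the gene body. The control peak reached 24.7 kb upstream and 13.9 kb downstream of the start, while the Eed cKO peak reached 17.2 kb upstream and ended 0.353 kb before the start. The stretch of Six3 printed above and the bases after this start were under the control peak alone as far as that peak reached. The RefSeq span of Six3 begins before the start of the promoter table, however, and the Eed cKO peak covered 6.87 kb of the 12.6 kb span, its low-coordinate end included. The antisense gene Six3os1, a long noncoding RNA gene of 16.5 kb, lay wholly under the control peak, and the Eed cKO peak covered 14.8 kb of it. Reads of a histone mark carry no strand, so coverage of Six3 and Six3os1 cannot be told apart where their spans overlap.

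Six2, which keeps nephron progenitors of the kidney undifferentiated, was the neighbour of Six3 on chromosome 17. Six2 spans 85662736 to 85688254 (25.5 kb, minus strand). The control peak was 20.5 kb wide (85677083 to 85697603) and the Eed cKO peak 14.9 kb (85678145 to 85693056). The Eed cKO peak covered 72.7% of the control peak and kept the start inside it. Its edges differed unequally: downstream of the start the control peak reached 11.2 kb and the Eed cKO peak 10.1 kb, and upstream they reached 9.35 and 4.80 kb. The upstream part also lay over the noncoding gene CJ186046Rik, with 9.11 kb of it under the control peak and 4.56 kb under the Eed cKO peak.

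Six6, a factor of the retina and pituitary, lies on chromosome 12 from 72939882 to 72944899. It is a compact gene of 5.02 kb, and a 19.1 kb control peak (72933700 to 72952842) extended past both of its ends. The Eed cKO peak was 5.44 kb wide (72936826 to 72942263), which is 28.4% of the control width. It was nearly centred on the start, reaching 3.06 kb upstream and 2.38 kb downstream, while the control peak had reached 6.18 and 13.0 kb. A second control peak, 6.52 kb wide, lay upstream at a gap of 12.7 kb from the first, and no Eed cKO peak met it. Its nearest edge was 18.9 kb from Six6, so the window took in only part of it.

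Six4, expressed with other Six-family factors in muscle precursors, lies on chromosome 12 from 73099609 to 73114031 (14.4 kb, minus strand). It had 2 control peaks, 3.38 kb apart. One, 14.7 kb wide (73103303 to 73118006), lay over both annotated starts, reaching 4.58 kb upstream and 10.1 kb downstream of the one farther upstream. No Eed cKO peak met it. The other, 4.08 kb wide (73095846 to 73099926), lay over the far end of the gene, and there the Eed cKO peak was 4.30 kb wide and covered it entirely. The nearest edge of an Eed cKO peak was thus 13.5 kb from the start farther upstream. The wide control peak also covered 5.82 kb of the span of Mnat1, which overlaps Six4 and whose product belongs to the CDK-activating kinase. This peak ended 5.71 kb short of the promoter entry of Mnat1 (plus strand). The RefSeq span of Mnat1 begins before that entry, however, at 73112185, and this low-coordinate end lay under the wide control peak.

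Six5, a neighbour of Dmpk at the myotonic dystrophy locus, had no peak in its window. It lies on chromosome 7 from 19094544 to 19098549, a compact gene of 4.01 kb. The nearest control peak was 70.7 kb away and the nearest Eed cKO peak 306.5 kb. The other genes reaching into its window, Dmwd, Dmpk, Mir3100 and Bhmg1, had no peak either. In both lists Six5 thus stood apart from the other 4 Six-family genes.

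The Eya genes are much longer, with spans of 85.7 to 247.9 kb against 4.01 to 25.5 kb for the Six-family genes, and had a single control peak of 3.82 to 8.56 kb or none, where the median control peak of the whole list was 4327 bp wide. Eya4, mutated in a form of hearing loss, lies on chromosome 10 from 23102962 to 23350838 (minus strand). Its control peak was 8.56 kb wide (23344662 to 23353224) and lay over the annotated start, reaching 3.28 kb upstream and 5.28 kb downstream. In Eed cKO it had no peak, and the nearest one was 1272 kb from the gene. The CG-rich stretch printed for Eya4 was therefore under the control peak alone.

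Eya1, the gene of branchio-oto-renal syndrome, lies on chromosome 1 from 14168953 to 14311035. A 5.63 kb control peak (14307601 to 14313233) lay over its high-coordinate end, with 3.44 kb of the peak inside the span. It had no Eed cKO peak, and the nearest one was 703.6 kb away. Eya2, a cofactor in muscle precursors, lies on chromosome 2 from 165595028 to 165771727. Its control peak was 3.82 kb wide (165594022 to 165597838) and its Eed cKO peak 4.58 kb wide (165594076 to 165598659), both over the low-coordinate end. The Eed cKO peak covered 98.6% of the control peak and ran on for a further 0.821 kb into the gene. With 20 kb flanks Eya2 was the 1 member of the 9 with more covered length in Eed cKO than in control. That order turned round with 50 kb flanks, where control peaks covered 11.2 kb at Eya2 and Eed cKO peaks 10.6 kb. Eya3, found in many tissues, lies on chromosome 4 from 132639025 to 132724765 and had no peak in its window, with the nearest 485.6 kb away in control and 521.6 kb in Eed cKO.

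**Figure D3:**
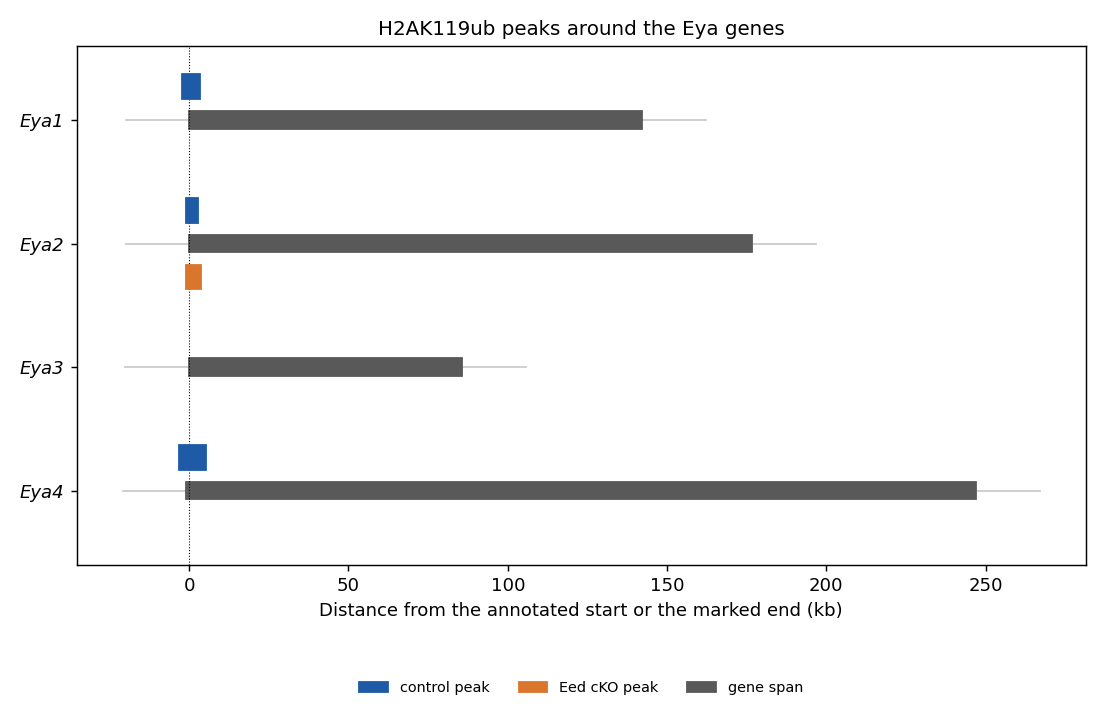
Peaks around the 4 Eya genes are drawn to scale in kb (horizontal axis) with the colours of the plot of Six-family peaks. Distance is from the annotated start for Eya3 and Eya4 and, with no promoter entry, from the end that carries the peak for Eya1 and Eya2; the peaks of 3.82 to 8.56 kb sit at that end of long genes, and Eya2 alone of the 4 has an Eed cKO peak.

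Set side by side, 4 of 5 Six-family genes and 3 of 4 Eya genes had a control peak, so factors and cofactors had nearly the same share of members marked in control. In Eed cKO 4 of 5 Six-family genes and 1 of 4 Eya genes had a peak. Per length the groups were far apart: control peaks covered 38.0% of the Six-family windows and 2.22% of the Eya windows, and Eed cKO peaks 16.1% and 0.564%. Windows of long genes consist mostly of gene body, where no peak was called in the Eya genes beyond the marked end. The widest control peak of an Eya gene, 8.56 kb at Eya4, was narrower than the widest at each marked Six-family gene, which lay between 14.7 and 38.6 kb. Of the 6 control peaks at Six-family genes 4 met an Eed cKO peak, and of the 3 at Eya genes 1 did. The share of all control peaks that met one is not given here, so these peak counts are description only.

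Gene length alone went with different backgrounds. Among 13390 genes with spans no longer than Six2, the longest Six-family gene, 19.4% had a control peak and 14.4% an Eed cKO peak in the window. Among 2916 genes at least as long as Eya3, the shortest Eya gene, the shares were 30.5% and 15.8%. Of the control-marked genes 60.1% in the shorter class and 44.8% in the longer class also had an Eed cKO peak. The Six-family genes (4 of 4) lay above and the Eya genes (1 of 3) below the share of their own class, on counts too small to call a difference.

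**Figure D4:**
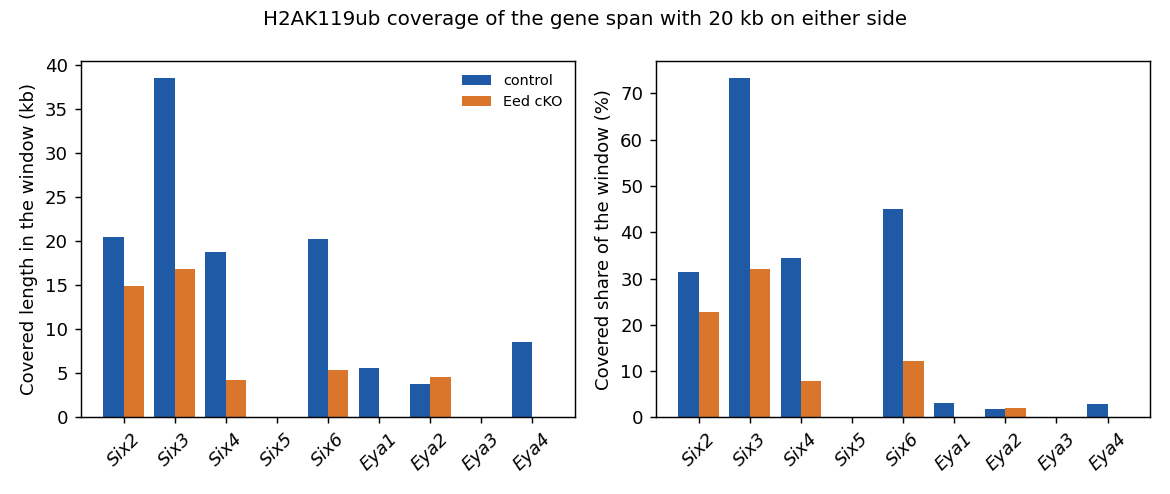
Bars give the length under peaks in kb (left) and the share of the window under peaks in percent (right) for each of the 9 genes, control in blue and Eed cKO in orange, with 1 list per bar and no error. Six3 has the tallest control bars, 38.6 kb and 73.4%, and the Eya bars stay at or below 8.56 kb and 3.09%.

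The window of Six3 was covered to 73.4% in control and 32.1% in Eed cKO, that of Six6 to 44.9% and 12.1%, that of Six4 to 34.5% and 7.90%, and that of Six2 to 31.3% and 22.8%. By share of the window Six2 was thus the lowest of these 4 in control and second in Eed cKO. By covered length with 20 kb flanks the order was Six3, Six2, Six6 and Six4 in both lists. Control peaks covered 38.6, 20.5, 20.2 and 18.8 kb and Eed cKO peaks 16.9, 14.9, 5.44 and 4.30 kb. This order held with 10 kb flanks but changed with others. With no flank Eed cKO peaks covered 10.1 kb at Six2 and 6.87 kb at Six3. With 50 kb control peaks covered 42.5 kb at Six2 and 38.6 kb at Six3. Among all genes with a control peak the median control-covered length was 5.70 kb (quartiles 3.09 and 10.3 kb). The 4 marked Six-family genes, at 18.8 to 38.6 kb, lay above the upper quartile, and Eya1, Eya2 and Eya4, at 3.82 to 8.56 kb, lay between the quartiles. As much control-covered length as at Six3 was found at 0.366% of all genes.

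The Six-family genes of chromosome 12 and chromosome 17 differed in how far the lists matched. On chromosome 17 the windows of Six3 and Six2 overlapped, since the genes are 36.5 kb apart, and held 2 control and 2 Eed cKO peaks in 114.6 kb. Control peaks covered 59.1 kb (51.5%) there and Eed cKO peaks 31.8 kb (27.7%), and 53.8% of the control-covered bases were met. On chromosome 12, where Six6 and Six4 are 154.7 kb apart, the 2 windows held 4 control and 2 Eed cKO peaks. Control peaks covered 39.0 kb (39.2%) and Eed cKO peaks 9.74 kb (9.79%), and 24.4% of the control-covered bases were met. Both control peaks on chromosome 17 met an Eed cKO peak, against 2 of 4 on chromosome 12. The stretch between these windows is not described here. Each cluster holds 2 members and 1 list per genotype, so this is a description of these peaks.

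The annotated start lay in a control peak for 5 of the 7 members with a promoter entry, where 6.42% of all genes did. In Eed cKO the start lay in a peak for 2 of 7, Six2 and Six6, where 3.72% of all genes did. Of all 1123 genes with the start in a control peak, 43.4% also had it in an Eed cKO peak. For the members that was 2 of 5, near this share. Six3 and Six4 were thus called as marked in Eed cKO by the window while their starts were not under an Eed cKO peak.

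Of the 5 pairs in which a control peak of a member met an Eed cKO peak, 3 (Six2, Six3 and Six6) had the Eed cKO peak inside at both edges. In all 5, each peak met only 1 peak of the other list. Over the whole lists 1470 pairs were of that kind, and 25.9% had the Eed cKO peak inside at both edges. Peaks that met more than 1 peak of the other list were left out. The Eed cKO width was 28.4% of the control width at Six6, 43.8% at Six3 and 72.7% at Six2, and 105.4% at Six4 and 120.1% at Eya2. Over these 1470 pairs the ratio of Eed cKO to control width had a median of 1.02 (quartiles 0.737 and 1.41). The 3 members with control peaks of 19.1 kb or more lay below the lower quartile, and the 2 with control peaks of about 4 kb lay between the quartiles. The 1470 pairs were not matched to the members by control width, so whether other peaks as wide had like ratios was not tested. Among genes with a peak in both lists, the median share of control-covered bases met was 74.1% over all genes and 43.8% over the 5 members. Among genes with a control peak, whether or not Eed cKO had one, it was 11.4% over all 4635 genes and 26.9% over the 7 members. The members thus lay below all genes by the first measure and above them by the second.

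Other homeobox families gave values in the same window. All 10 Lhx and Lmx genes had a control peak and 9 an Eed cKO peak, and all 6 Dlx genes had both. Over the genes with a control peak (10, 6 and 4), median control-covered length was 24.3 kb for Lhx and Lmx, 29.4 kb for Dlx and 20.4 kb for Six-family genes. For the same genes it was 14.5, 16.6 and 10.2 kb in Eed cKO, and the median share of control-covered bases met was 63.2%, 52.5% and 35.3%. These families were not compared by a test.

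Genes known to act with Six-family and Eya proteins were read from a list of 36, all found in the gene table. Of these 30 had a control peak, 26 an Eed cKO peak and 25 both, against 21.2%, 14.3% and 11.7% of all genes. Among 10 Pax and Dach genes 8 had a control peak and 7 an Eed cKO peak. Pax3, a factor of neural crest and muscle, had 80.2 kb under control peaks, of which 21.3% were met in Eed cKO. Pax2, which acts with Six-family and Eya proteins in the kidney, had 55.4 kb, of which 41.9% were met. Pax6, the eye factor, had 46.7 kb, of which 55.2% were met. Pax7, a factor of muscle stem cells, had 26.7 kb under Eed cKO peaks and 27.5 kb under control peaks. Dach1 and Dach2, the Dachshund corepressors at the other end of the network, had no peak in either list, as Six5 and Eya3 had none.

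The corepressors and other cofactors (Tle1, Tle2, Tle3, Tle4, Sobp, Ski and Skil) had a control peak in 6 of 7 cases and an Eed cKO peak in 4. Among 19 genes of the eye, kidney, muscle, ear and sensory programmes, 16 had a control peak and 15 an Eed cKO peak. Lhx2, an eye field factor, had 59.7 kb under control and 37.2 kb under Eed cKO peaks. Hoxd11, which acts in the kidney, had its whole window of 47.5 kb under 1 control peak, and 35.8% of these bases were met. The covered length of Hoxd11 in control is thus capped by its window. Named after their values were seen, the list's genes with a control peak alone were Neurod1, Pax8, Tle1, Ret and Ski, and Wnt4 was the 1 with an Eed cKO peak alone. Those with no peak were Dach1, Dach2, Skil, Myog and Myf5.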

How the data were processed

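The deposited files were 2 peak lists, 1 per genotype, with chromosome, start and end and no score, and the name of each list gives the build as mm10. The submitters' processing notes list Bowtie2 (2.3.3.1) and SAMtools (1.9). How peaks were called, at which threshold, and how libraries and inputs entered the lists is not given in the sources used here. Starts were read as counted from 0, as in BED files, and are printed from 1. Gene spans were those of RefSeq GRCm38.p6, and strand and start came from its promoter table (the start farthest upstream per gene, 17492 genes). Covered length is the union of peaks clipped to the window. The members and lists were chosen with earlier results of these data known. All 9 members are named. Of the pathway list, the 4 genes with the most control coverage, the 2 with the most Eed cKO coverage, Dach1, Dach2, Pax2 and Pax6 are named by rule. Computation used Python 3.11.15, numpy 2.4.6 and pandas 2.3.3. On simulated lists the coverage of 200 planted genes was recovered in 200, with 0 wrong base totals. Alternatives were other flanks, wider peaks, a trimmed control list, merged peaks and a stricter overlap.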

Additional observations from a re-analysis of the deposited data

How the results depend on the processing

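The count of members with a control peak stayed at 7 with flanks of 0, 2, 10 and 50 kb and with peaks closer than 1000 bp merged, and was 6 with the wider peaks of each list and with the control list trimmed to its widest 2541 peaks. With the wider peaks (at least the median width of their list), 3 members in place of 5 had an Eed cKO peak, 0 Eya genes did, 34.4% of control-covered bases were met, and 15.6% were met on chromosome 12. Covered length scales with the window: with no flank control peaks covered 52.2 kb and Eed cKO peaks 23.4 kb, and with 2 kb control peaks covered 71.2 kb. The share of control-covered bases met, 38.8% with 20 kb, was 43.1% with no flank, 44.1% with 2 kb, 41.9% with 10 kb, 39.0% with 50 kb, 36.8% with the trimmed list and 39.2% with 50% of a peak required inside the window. On chromosome 12 it was 16.8%, 27.8% and 25.1% with flanks of 0, 2 and 10 kb and 25.1% with the 50% rule. On chromosome 17 it was 71.5%, 70.5% and 61.6% with those 3 flanks, above chromosome 12 under each. Of 96 covered lengths of single members that were above 0 with 20 kb, 73 stayed within 1.5 times of that value and 23 did not; the other 48, at 0 kb with 20 kb, were also 0 kb under each alternative.

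No paired analysis was possible because each genotype had 1 peak list and the lists carry no replicate numbers. Depth and peak strength are unknown, so no interval or detection floor can be given, and the absence of a peak is not the absence of the mark.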
